A study of Mus musculus with 2 samples.

Results

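Mature neutrophils were examined in 2 single-cell RNA-seq libraries of the mouse colon, 1 labelled Elf1 knockout (Elf-1 KO) and 1 wild type. Both came from C57BL/6 mice of 8 to 10 weeks that had been given dextran sulfate sodium (DSS), so exposure to DSS was common to both labels and no library of untreated mice was analysed here. Each library pooled cells of 3 mice from the proximal colon, distal colon and rectum. The sources used here give neither the deleted stretch of Elf1 nor the dose and duration of DSS. A barcode (1 captured cell) was counted as a mature neutrophil when S100a8 and S100a9 together made up at least 2% of its UMIs, where a UMI is a molecular tag that counts 1 RNA molecule. It also needed a UMI of at least 1 of Csf3r, Cxcr2, Retnlg, Hdc, Mrgpra2b and Asprv1, and fewer than 10 UMIs of the granule genes Ngp, Camp and Ltf. Barcodes with any UMI of C1qa, C1qb (macrophages) or Cd79a (B cells), or with 1% or more of UMIs from the fibroblast genes Dcn, Col1a1, Col1a2, Col3a1 and Lum, were left out. The rule found 847 cells in the library labelled Elf1 knockout and 144 in the wild-type library, 991 of the 17858 barcodes that passed the quality limits (18647 in all). These genes chose the cells, and their levels are given here as a description only.

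Neutrophils are short-lived phagocytes that leave the bone marrow after storing antimicrobial proteins in granules made in a fixed order, and S100A8 and S100A9 form calprotectin, a metal-binding protein that fills their cytoplasm. Ngp, Camp and Ltf are transcribed while secondary granules are built and are shut off as the cell matures. In DSS colitis, in which the polymer injures the colonic epithelium, neutrophils enter the mucosa, where they release chemokines, cytokines, proteases and oxidants.

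Each label had a single library whose cells cannot be assigned to mice. Differences were therefore not tested, and every interval below is a 95% interval for counting error only. The cells held 1621462 UMIs under the Elf1 knockout label and 212888 in wild type, with medians of 1729 and 1391.5 UMIs, 612 and 548.5 genes and 1.21% and 0.902% mitochondrial UMIs per cell. Precision was therefore limited by the wild-type cells. S100a8 and S100a9 made up a median of 15.5% of a cell's UMIs in the library labelled Elf1 knockout (quartiles 11.4% and 19.0%) and 12.7% in wild type (8.13% and 15.8%). The libraries shared 57 barcode sequences, and 7 of the 847 cells carried a sequence also present in the other library, but none of these was a mature neutrophil in both. Just inside the limit, at 2% to 2.5%, lay 11 and 3 cells, and just outside it, at 1.5% to 2%, lay 9 and 5 barcodes. Across the granule limit, 81 and 3 cells held 7 to 9 UMIs of Ngp, Camp and Ltf, and 79 and 1 barcodes held 10 to 14.

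The label of neutrophil held against genes that the rule did not use. All 24 genes of a list of further neutrophil genes, among them Ly6g, Il1r2, Trem1, Clec4d and Mmp9, averaged 50 CPM or more, where CPM is the gene's UMIs scaled to one fixed total for the neutrophils of each library. All 24 also reached 3 times a background bound in the library where the gene's CPM was higher, the only library checked here and below. That bound is the lowest mean of UMIs per cell found in any marker-assigned class of the library. With equal uptake by all cells, RNA free in the suspension cannot exceed that bound. Free RNA was visible and unequal, since 56.0% (52.3 to 59.6) of B cells had an S100a8 UMI in the library labelled Elf1 knockout and 6.01% (5.08 to 7.04) in wild type, at median depths of 1206 and 1424 UMIs. The S100 genes still made up a median of only 0.0753% and 0% of UMIs in those B cells. Of 7 eosinophil markers, 4 were listed in each library, and they held 4 UMIs in neutrophils labelled Elf1 knockout and 1 in wild type. The 9 mast cell and basophil markers held 18 and 9 UMIs. Ccr3 and Il5ra of the first list and Cpa3 and Tpsb2 of the second were at 0 in both sets of neutrophils. The 12 macrophage and monocyte markers summed to 742 CPM in neutrophils labelled Elf1 knockout, against 334 CPM in wild type, with 14.8% and 6.25% of cells holding 3 or more such UMIs. These markers stood at 10730 and 10840 CPM in the macrophages and monocytes themselves. That contrast was partly fixed in advance, because the rule excluded C1qa and C1qb UMIs and these same markers assigned the macrophages and monocytes. The 10 immature neutrophil markers, Ngp, Camp and Ltf among them, summed to 1161 CPM under the Elf1 knockout label and 404 CPM in wild type. Of the cells, 35.7% and 8.33% held 3 or more such UMIs, and 58.1% and 19.4% held an Ngp UMI. The term mature therefore covers the 2 libraries unequally. Haemoglobin and other erythroid markers summed to 5013 and 540 CPM, and a single cell held 2325 of the 2990 Hba-a1 UMIs in the library labelled Elf1 knockout. Fibroblast markers summed to 1124 and 648 CPM, and epithelial markers to 165 and 780 CPM. The rule itself limited the fibroblast sums, since it capped Dcn, Col1a1, Col1a2, Col3a1 and Lum.

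Mature neutrophils made up a larger part of the library labelled Elf1 knockout whichever cells were taken as the total. They were 8.70% (8.15 to 9.28) of all barcodes there and 1.77% (1.497 to 2.08) in wild type, 4.91 times the share (4.11 to 5.90). The libraries differed in their other cells, with 51 and 1122 epithelial cells and 4177 and 1513 fibroblasts. Among leukocytes, which sets these aside, the shares were 20.2% (19.0 to 21.4) and 3.17% (2.68 to 3.72), or 6.36 times (5.33 to 7.65). B cells were 740 of the 4203 leukocytes under the Elf1 knockout label and 2348 of the 4547 in wild type, so that ratio also depends on them. Among myeloid cells alone the shares were 36.7% (34.7 to 38.7) and 16.1% (13.8 to 18.7), or 2.28 times (1.91 to 2.74). This total includes the mature neutrophils and the immature ones counted next, which draws the ratio toward 1. Immature neutrophils, which met the same rule but held 10 or more UMIs of Ngp, Camp and Ltf, numbered 452 and 3. They were thus 34.8% (32.2 to 37.5) of all neutrophils under the Elf1 knockout label and 2.04% (0.423 to 5.85) in wild type, and the ratio of immature to mature cells was 0.534 against 0.0208. A larger share of cells says nothing of absolute cell numbers, and the dissociation of each pool cannot be told apart from its label.

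**Figure D1:**
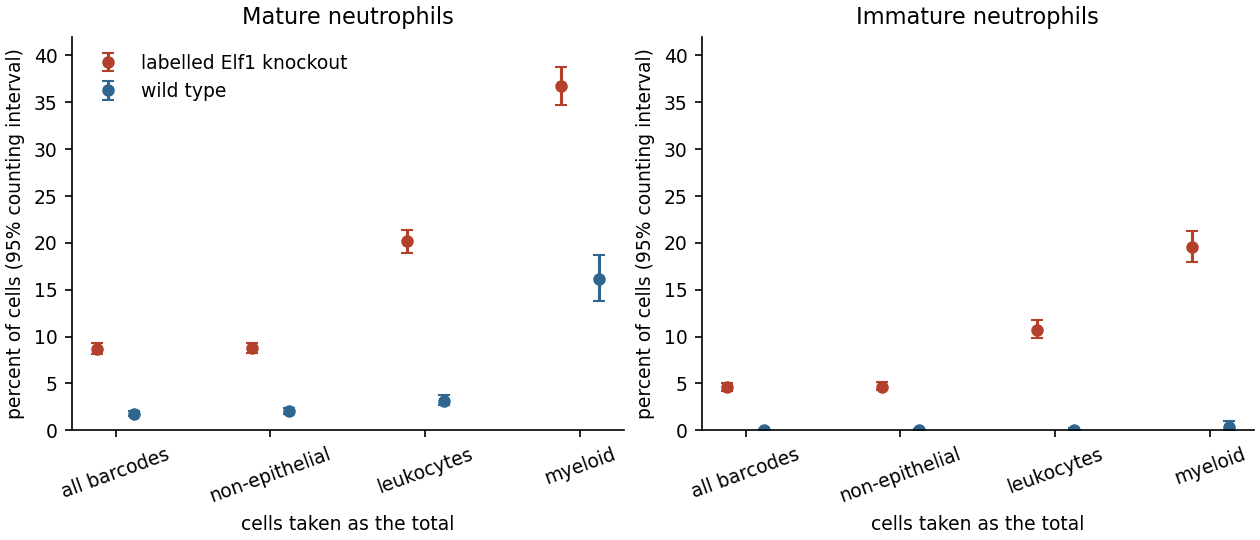
Percent of cells that were mature (left) or immature (right) neutrophils in the library labelled Elf1 knockout (red) and in wild type (blue), with 4 choices of the total on the horizontal axis. Points are shares and bars are exact 95% intervals for counting error. The red mature shares lie between 8.70% and 36.7% and the blue ones between 1.77% and 16.1%, and the blue immature shares lie at or below 0.336%.

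Elf1, the ETS-family transcription factor named in the label (ENSMUSG00000036461), had 212 UMIs or 131 CPM in mature neutrophils labelled Elf1 knockout and 21 UMIs or 98.6 CPM in wild type. The log2 ratio of 0.41 (-0.24 to 1.13) had an interval that included 0. The level in the library labelled Elf1 knockout was 0.564 times the background bound. An Elf1 UMI was seen in 18.7% and 11.1% of neutrophils, fewer than the 51.2% and 44.1% of B cells at the depths given above. The deposited counts are per gene and the deleted stretch is unknown, so this level checks nothing about the deletion, and all directions follow the labels.

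Of the 8 genes by which the cells were chosen, 6 differed by less than 2-fold. Retnlg, which encodes a resistin-like secreted protein of mouse neutrophils (chromosome 16 on GRCm38), stood at 45060 CPM in cells labelled Elf1 knockout and 16620 CPM in wild type, a log2 ratio of 1.44 (1.39 to 1.49). Csf3r, the receptor for granulocyte colony-stimulating factor, stood at 932 CPM against 1949 CPM, a log2 ratio of -1.06 (-1.22 to -0.90). With TMM scaling, described below, the log2 ratio of Csf3r was -0.85. A Csf3r UMI was seen in 74.1% and 88.2% of neutrophils, and in 1.08% and 0.383% of B cells, at the median depths given above. S100a8 stood at 107100 and 82660 CPM, and S100a9, its partner, at 36880 and 40270 CPM. The chemokine receptor Cxcr2 stood at 1169 and 1043 CPM, and Mrgpra2b, a G protein-coupled receptor, at 812 and 794 CPM. Hdc, which makes histamine, and Asprv1, a retroviral-like protease, stood at 2289 and 999 CPM under the Elf1 knockout label and at 3147 and 1259 CPM in wild type.

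Across the transcriptome, 2070 genes averaged at least 50 CPM over both libraries. Of these, 114 (5.51%) had a ratio of 2 or more in cells labelled Elf1 knockout over wild type, and 181 (8.74%) a ratio of 0.5 or less. The median log2 ratio of all 2070 was -0.13, and 1201 (58%) lay below equality. TMM scaling, which sets that middle by trimming, adds 0.213 to every log2 ratio and turns the split to 197 higher and 111 lower, so a small difference has no settled sign. Passing 2-fold is a matter of size and not a test. Every list count below is to be read beside the shares of all genes, 5.51% past 2-fold higher, 8.74% lower and 58% below equality. By the rule for named genes, 424 were eligible, and the 12 highest and 12 lowest are given here.

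The 12 higher genes under the Elf1 knockout label have varied functions. Mmp8, the neutrophil collagenase (ENSMUSG00000005800, chromosome 9, 7558456 to 7568485, plus strand), had 5285 UMIs or 3259 CPM (3172 to 3348) in cells labelled Elf1 knockout and 154 UMIs or 723 CPM (614 to 847) in wild type, 4.51-fold higher (3.84 to 5.32). Ifitm6, a myeloid member of the interferon-induced transmembrane family, stood at 2597 and 681 CPM, 3.81-fold higher (3.23 to 4.53). Lipg, a secreted phospholipase also called endothelial lipase, had 202 UMIs against 1, a ratio of 26.5 (4.71 to 1053). Nos2, the inducible nitric oxide synthase, had 179 UMIs against 3, and Col4a3bp, a ceramide carrier, 158 against 3. The prion protein gene Prnp stood at 253 and 23.5 CPM, Klhdc4 at 210 and 47.0 CPM, the membrane scaffold gene Flot2 at 112 and 32.9 CPM, and the actin-severing gene Dstn at 254 and 89.2 CPM.

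The remaining 3 of the 12 were Chil3, Saa3 and Cxcl13. Chil3, a chitinase-like protein of neutrophils and macrophages, had 3314 UMIs or 2044 CPM in cells labelled Elf1 knockout and 1 UMI or 4.70 CPM in wild type, a ratio of 435 (78.0 to 17190). The 125 cells with 3 or more macrophage or monocyte UMIs held 77.2% of those 3314 UMIs. Saa3, an acute-phase serum amyloid, stood at 3157 and 263 CPM, a log2 ratio of 3.59 (3.21 to 3.99), with 63.2% of its UMIs in the same 125 cells and a level 3.54 times its background bound. Cxcl13, the B cell attractant, had 469 UMIs against 5, and 10 cells held 63.3% of the 469. For comparison, the same 125 cells held 24.0% of the Mmp8 UMIs and 21.0% of those of Ifitm6. Without the cells bearing 3 or more such UMIs in either library, the log2 ratio was 2.41 for Saa3, against 3.59 with them, and 6.84 for Chil3, against 8.77.

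The 12 lower genes under the Elf1 knockout label include receptors and interferon-inducible genes. Cxcr4, the receptor that holds neutrophils in bone marrow and returns on aged ones (chromosome 1, 128588199 to 128592293, minus strand), stood at 181 CPM (161 to 203) in cells labelled Elf1 knockout and 695 CPM (588 to 817) in wild type, 3.85-fold lower (3.14 to 4.70). Clec7a, the beta-glucan receptor Dectin-1, stood at 229 and 958 CPM, 4.18-fold lower (3.50 to 4.97). Gbp2, an interferon-induced GTPase, stood at 42.6 and 188 CPM, and Isg15, a ubiquitin-like interferon product, at 86.3 and 338 CPM. Il15, a cytokine that sustains lymphocytes, had 36 UMIs against 25 over the unequal totals, or 22.2 and 117 CPM.

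Others of the 12 act in metabolism, matrix and gene regulation. Slc7a11, a cystine importer, stood at 163 CPM under the Elf1 knockout label and 611 CPM in wild type, and Tgm2, a transglutaminase, at 141 and 521 CPM. The class I-like gene H2-Q10 stood at 144 and 536 CPM, although reads of class I genes can be split among near-identical copies. Gpr132, a lipid-sensing receptor, had 71 UMIs against 35, and Cd300c2, an immune receptor, 58 against 28. Dleu2, a long noncoding RNA, had 56 against 27, and Dot1l, a histone methyltransferase, 46 against 22. Each of the 12 had an interval of the ratio that lay wholly below 1, which the naming rule required.

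**Figure D2:**
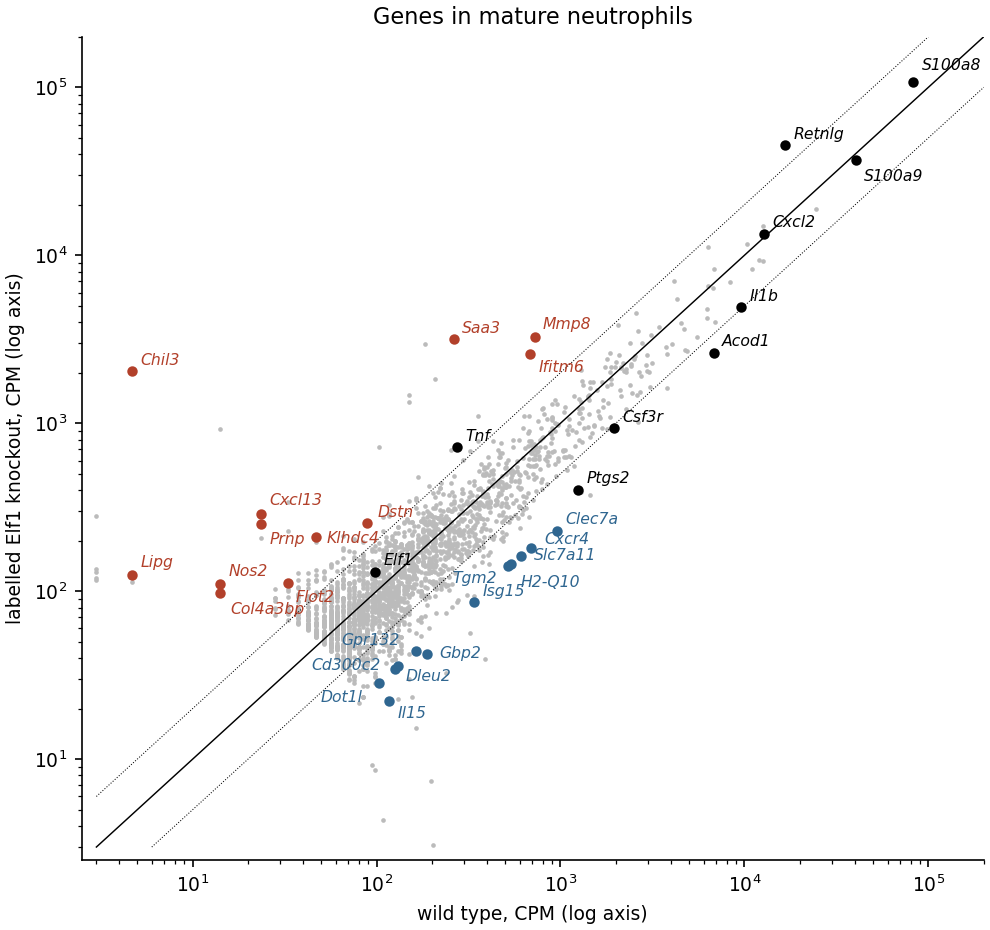
CPM of the 2070 genes in mature neutrophils labelled Elf1 knockout (vertical log axis) and wild type (horizontal log axis), with values under 3 CPM drawn at 3. Red points are the 12 named higher genes, blue the 12 named lower genes and black other genes of the text, the solid line is equality and the dotted lines are 2-fold. Mmp8 and Saa3 lie above the upper dotted line, at 3259 and 3157 CPM on the vertical axis, and Acod1 and Ptgs2 below the lower one.

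Promoter windows are shown for 4 genes that stood on opposite sides of this comparison, Retnlg and Mmp8 (higher) and Il1b and Cxcr4 (lower), since the gene named in the label encodes a factor that binds promoters. Each window is RefSeq sequence on GRCm38.p6 from 250 bases before to 50 after a gene's start, printed 5′ to 3′ on the gene's strand, at chr16:48872358-48872657 (plus), chr9:7558179-7558478 (plus), chr2:129371090-129371389 (minus) and chr1:128592250-128592549 (minus). Capitals mark matches, on either strand, to GAGGAAGT (an ETS motif of PU.1), TTNNGNAA (C/EBP) or CCGGAAGT (the ETS class of ELF1). The motifs do not overlap in these 4 windows.
Retnlg: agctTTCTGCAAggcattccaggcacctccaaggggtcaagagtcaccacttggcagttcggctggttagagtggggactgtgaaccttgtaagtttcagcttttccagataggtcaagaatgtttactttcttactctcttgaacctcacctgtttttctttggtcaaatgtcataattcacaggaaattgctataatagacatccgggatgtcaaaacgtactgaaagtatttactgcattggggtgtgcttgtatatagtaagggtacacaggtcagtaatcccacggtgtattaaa
Mmp8: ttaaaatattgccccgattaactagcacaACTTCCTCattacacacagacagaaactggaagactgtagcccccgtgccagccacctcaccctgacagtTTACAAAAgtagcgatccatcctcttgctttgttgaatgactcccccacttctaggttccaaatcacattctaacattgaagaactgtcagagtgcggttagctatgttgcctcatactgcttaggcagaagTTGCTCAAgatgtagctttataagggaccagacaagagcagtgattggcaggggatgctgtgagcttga
Il1b: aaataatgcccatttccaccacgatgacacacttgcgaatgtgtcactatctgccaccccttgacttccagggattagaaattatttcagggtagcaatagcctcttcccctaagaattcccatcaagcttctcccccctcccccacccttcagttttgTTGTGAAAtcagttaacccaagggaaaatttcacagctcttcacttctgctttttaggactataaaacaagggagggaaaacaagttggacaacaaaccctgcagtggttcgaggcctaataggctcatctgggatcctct
Cxcr4: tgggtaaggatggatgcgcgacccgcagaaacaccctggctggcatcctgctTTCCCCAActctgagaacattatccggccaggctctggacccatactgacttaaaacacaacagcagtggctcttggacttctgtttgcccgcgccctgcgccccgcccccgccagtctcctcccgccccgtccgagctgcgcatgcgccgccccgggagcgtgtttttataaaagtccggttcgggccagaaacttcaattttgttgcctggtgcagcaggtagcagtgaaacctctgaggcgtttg
Mmp8 held 1 PU.1 match and 2 C/EBP matches, and Retnlg, Il1b and Cxcr4 1 C/EBP match each. Of 32851 RefSeq windows of this length, 3.20% held the PU.1 letters, 40.7% the C/EBP letters and 3.89% CCGGAAGT. Windows were found for 21 of 22 genes of the text looked up (22 windows), of which 16 held the C/EBP letters, 2 the PU.1 letters and 0 CCGGAAGT. Matches of letters are a description of these windows and not binding sites.

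Genes of the early mature stage, when secondary and tertiary granule proteins have been made and the cell leaves the marrow, stood higher under the Elf1 knockout label. Of 13 in the list, 12 passed the level limit, 3 were past 2-fold higher, 0 past 2-fold lower, and the median log2 ratio was 0.62, beside -0.13 for all genes. The 3 were Mmp8, Retnlg and Cd177, the last a surface protein of secondary granules at 476 and 169 CPM (log2 ratio 1.49, 1.01 to 2.02). The log2 ratio of Cd177 was 0.82 in cells with no UMI of Ngp, Camp and Ltf. Retnlg is also a gene of the rule, and of the 11 members outside the rule 2 were past 2-fold higher, with a median of 0.51. Lcn2, which binds bacterial siderophores, stood at 7055 and 4124 CPM, and Wfdc21, a small secreted protein, at 4557 and 2574 CPM. Padi4, the enzyme that citrullinates histones, and Mmp9, gelatinase B, lay the other way, at 133 and 965 CPM under the Elf1 knockout label and 202 and 1113 CPM in wild type. In the wider granule and secretory list, 17 of 19 passed, 2 were past 2-fold higher, 0 past 2-fold lower and the median was 0.20. Its lowest member was Slpi, a protease inhibitor, at 2690 and 4852 CPM. The subunits of the NADPH oxidase, which makes superoxide, lay close to equality, with 7 of 8 passing, 0 past 2-fold and log2 ratios between -0.35 (Ncf1) and 0.65 (Cybb). The value of Cybb, a subunit that macrophages share, was -0.64 without the cells bearing 3 or more macrophage or monocyte UMIs and 1.497 in cells with no UMI of Ngp, Camp and Ltf.

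Genes that neutrophils switch on in inflamed tissue were divided. Of 19 tissue activation genes, all 19 passed, with 1 past 2-fold higher and 5 lower, beside 5.51% and 8.74% of all genes. Their median was -0.47. The 5 were Acod1, which makes itaconate (2634 and 6811 CPM, log2 ratio -1.37, -1.46 to -1.28), Ptgs2, the inducible prostaglandin synthase (403 and 1249 CPM), Cd274, which encodes PD-L1 (95.6 and 310 CPM), the cytokine Osm (305 and 629 CPM) and the growth factor Vegfa (53.7 and 136 CPM). Il1b, the pyrogenic cytokine, stood at 4906 CPM in cells labelled Elf1 knockout and 9564 CPM in wild type, a log2 ratio of -0.96 (-1.03 to -0.89). Tnf stood higher, with 1173 UMIs or 723 CPM against 58 UMIs or 272 CPM, a log2 ratio of 1.41 (1.03 to 1.82). The chemokine genes Cxcl2 (13470 and 12730 CPM) and Ccl3 (1584 and 1588 CPM) stood nearly level, and Cxcl3 (760 and 474 CPM) and Ccl4 (3013 and 2396 CPM) somewhat higher. In the list of secreted cytokines, 18 of 23 passed, with 1 past 2-fold higher and 3 lower, among them the chemokine Ccl6 at 1621 and 3800 CPM, and a median of -0.14 that TMM scaling turned to 0.08.

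Of 16 receptors for attractants 10 passed, and 7 of the 10 lay below equality, beside 58% of all genes. Of the 10, 0 were past 2-fold higher, 1 (Cxcr4) was past 2-fold lower and the median was -0.39. Hcar2, a niacin and butyrate receptor, stood at 1212 and 2273 CPM, and Ccrl2, a chemerin-binding receptor, at 1634 and 3049 CPM. Fpr1 and Fpr2, which sense bacterial formyl peptides, stood at 1463 and 524 CPM under the Elf1 knockout label and 1184 and 428 CPM in wild type. Among 22 cytokine receptors 19 passed, with 0 past 2-fold higher, 1 (Csf3r) lower and Il1r2, the decoy receptor of interleukin 1, at 5461 and 4279 CPM. Among adhesion and migration genes 17 of 19 passed, with Cd177 past 2-fold higher and Itgal, the alpha chain of LFA-1 (102 and 249 CPM), and Itga4 (32.7 and 70.5 CPM, or 53 UMIs against 15) past 2-fold lower.

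The medians of the pattern recognition and NF-kB lists lay below that of all genes, -0.13. In lists this short, counts of 0 past 2-fold lie near the shares of all genes. Of 23 pattern recognition genes 16 passed, 0 were past 2-fold higher and 3 lower, beside 5.51% and 8.74% of all genes. The 3 were Clec7a, Clec4n (Dectin-2, 56.1 and 164 CPM) and the signalling kinase gene Irak2 (54.3 and 174 CPM). The median was -0.35 and 11 of the 16 lay below equality, beside 58% of all genes. Nlrp3, the inflammasome sensor, stood at 979 and 1513 CPM, and Cd14, the lipopolysaccharide co-receptor, at 11620 and 10290 CPM. Of 18 genes of NF-kB and its feedback 15 passed, 0 were past 2-fold in either direction, 12 lay below equality, beside 58% of all genes, and the median was -0.57, with Birc3 lowest at 210 and 413 CPM. Of 23 Fc and inhibitory receptor genes 20 passed and 0 were past 2-fold. Of 25 transcription factors 12 passed and 0 were past 2-fold, with Spi1, which encodes PU.1, at 987 and 954 CPM and Cebpb at 4217 and 6285 CPM.

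Interferon-response genes lay below equality for 18 of the 20 that passed, of 36 in the list, beside 58% of all genes. Of these, 7 were past 2-fold lower and 1, Ifitm6, past 2-fold higher, and the median was -0.82. The 7 were Rsad2 (viperin), Gbp2, Isg15, Oas3, Isg20, Gbp7 and Slfn5. Of these, Gbp7 and Slfn5 did not stay past 2-fold, with log2 ratios of -1.29 and -1.26 as reported, -0.23 for Gbp7 when each cell was thinned to 500 UMIs and -0.07 for Slfn5 in cells with no UMI of Ngp, Camp and Ltf. Rsad2 had 37 UMIs or 22.8 CPM in cells labelled Elf1 knockout and 28 UMIs or 132 CPM in wild type, a log2 ratio of -2.53 (-3.28 to -1.77). Several abundant members were within 2-fold, with Ifitm1 at 3993 and 6905 CPM, Ifitm2 at 6389 and 6717 CPM and Slfn4, a myeloid Schlafen gene, at 879 and 1489 CPM. The list held 17 members at 3 times their background bound.

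Among genes with suppressive functions 10 of 15 passed, with Nos2 past 2-fold higher, Cd274, Ptgs2 and Acod1 lower and a median of -0.52. Arg1, the arginase of myeloid suppressor cells, had 1 UMI in the library labelled Elf1 knockout and 0 in wild type. In survival and death, 8 of 18 passed, with the anti-apoptotic Bcl2l1 at 121 and 51.7 CPM (196 UMIs against 11) and the pro-apoptotic Pmaip1 at 48.7 and 108 CPM, while Mcl1 stood at 2040 and 2203 CPM. In lipid mediator synthesis 5 of 16 passed, with Ptgs2 lower and Alox5ap, which helps make leukotrienes, at 3841 and 2048 CPM. Of 22 immediate early genes that passed, Egr1 was past 2-fold higher (604 and 296 CPM) and Dusp2 lower (74.0 and 240 CPM), and only 8 reached 3 times the background bound. Of 14 glucocorticoid-induced genes 10 passed, 1 of them, Klf13, past 2-fold higher at 344 and 150 CPM. Hypoxia and glycolysis genes numbered 21 of 31, with Vegfa and the glycolytic Pfkp (44.4 and 117 CPM) lower, and antioxidants 11 of 17, with Slc7a11 and the thioredoxin reductase Txnrd1 (121 and 249 CPM) lower. Of the 9 stefins, cysteine protease inhibitors whose copies can share reads, 5 passed, and the stefin gene model Gm5483 was past 2-fold higher at 685 and 324 CPM.

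Some lists were near what free RNA could add. Of 16 heat shock genes 10 passed and 4 were past 2-fold lower, led by the near-identical Hspa1a (39.5 and 390 CPM) and Hspa1b (15.4 and 164 CPM), but 0 of the 10 reached 3 times the bound. Of 9 MHC class II genes 5 passed, of which Cd74, H2-Aa, H2-Ab1 and H2-Eb1 were past 2-fold lower, and only Ctss, the cathepsin of antigen processing, reached 3 times the bound. Ctss stood at 227 and 108 CPM, with 62.2% of its 368 UMIs in the 125 marker-bearing cells. Of 17 MHC class I genes 10 passed and H2-T23 was past 2-fold lower, with 0 at 3 times the bound and a median of -0.45 that turned to 0.03 with no CPM minimum. In the metal and iron list 9 of 13 passed. The metallothionein Mt1 stood at 2973 and 183 CPM and Mt2 at 718 and 103 CPM, 2.39 and 1.93 times their bounds in the library labelled Elf1 knockout, and 10 cells held 35.7% of the 4821 Mt1 UMIs. Ftl1, the ferritin light chain, stood at 1024 and 2645 CPM, and Fth1, the heavy chain, at 18940 and 24470 CPM.

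**Figure D3:**
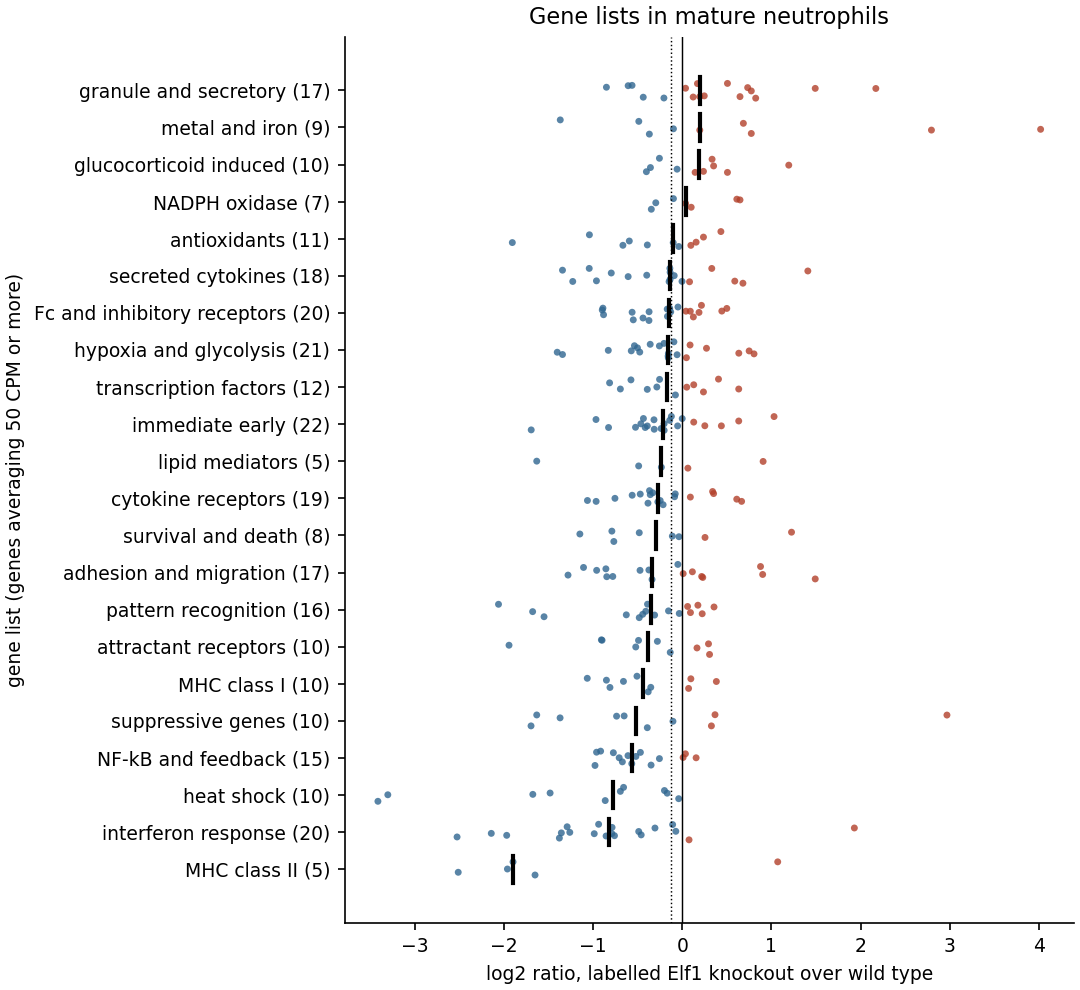
Log2 ratio of labelled Elf1 knockout over wild type (horizontal axis) for the members of each gene list that averaged at least 50 CPM, whose number stands beside the list's name. Points are genes (red above 0, blue below), thick bars are list medians, the solid line is 0 and the dotted line is the median of all 2070 genes, -0.13. The granule and secretory median lies at 0.20, the interferon response median at -0.82 and that of MHC class II at -1.90.

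Since granule transcripts are lost as neutrophils mature, the cells were set side by side at equal counts of Ngp, Camp and Ltf. These genes are part of the rule and the counts are raw UMIs, so equal counts do not match the cells for stage. With no such UMI there were 348 cells labelled Elf1 knockout and 114 wild-type cells, with 1 or 2 there were 201 and 18, and with 3 to 9 there were 298 and 12. In cells with none, Mmp8 stood at 2454 CPM (2328 to 2584) under the Elf1 knockout label and 519 CPM (414 to 643) in wild type, and Retnlg at 32590 and 12840 CPM. Il1b stood at 6919 CPM (6708 to 7136) and 10420 CPM (9931 to 10930) in the same cells, Acod1 at 3139 and 7074 CPM, and Cxcr4 at 239 and 785 CPM. For the genes given here the directions were those of all mature neutrophils, at median depths of 1482.5 and 1342.5 UMIs. Among small log2 ratios, those of Cxcr2, Alox5 and Mrgpra2b turned, to -0.02, -0.05 and -0.09 from 0.17, 0.06 and 0.03 in all cells. That of the heat shock gene Dnajb6 turned to 0.08 from -0.04.
Within the library labelled Elf1 knockout, the levels of some genes, chosen after their values were seen, ran in order with the granule count. From no UMI through 1 or 2 and 3 to 9 to the immature cells, Cd177 stood at 239, 418, 729 and 1423 CPM and Ifitm6 at 1667, 2399, 3575 and 5175 CPM. Over the same order Il1b stood at 6919, 4394, 3379 and 1827 CPM, and Clec7a at 313, 238, 148 and 61.7 CPM. Other genes did not follow the order, among them Retnlg at 32590, 47060, 55240 and 53930 CPM and Cxcr2 at 1067, 1261, 1206 and 1030 CPM. Over the whole set, however, the median of the tissue activation list was -0.16 and that of the NF-kB list -0.20 when only cells with none of these UMIs were compared, against -0.47 and -0.57 in all cells.

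**Figure D4:**
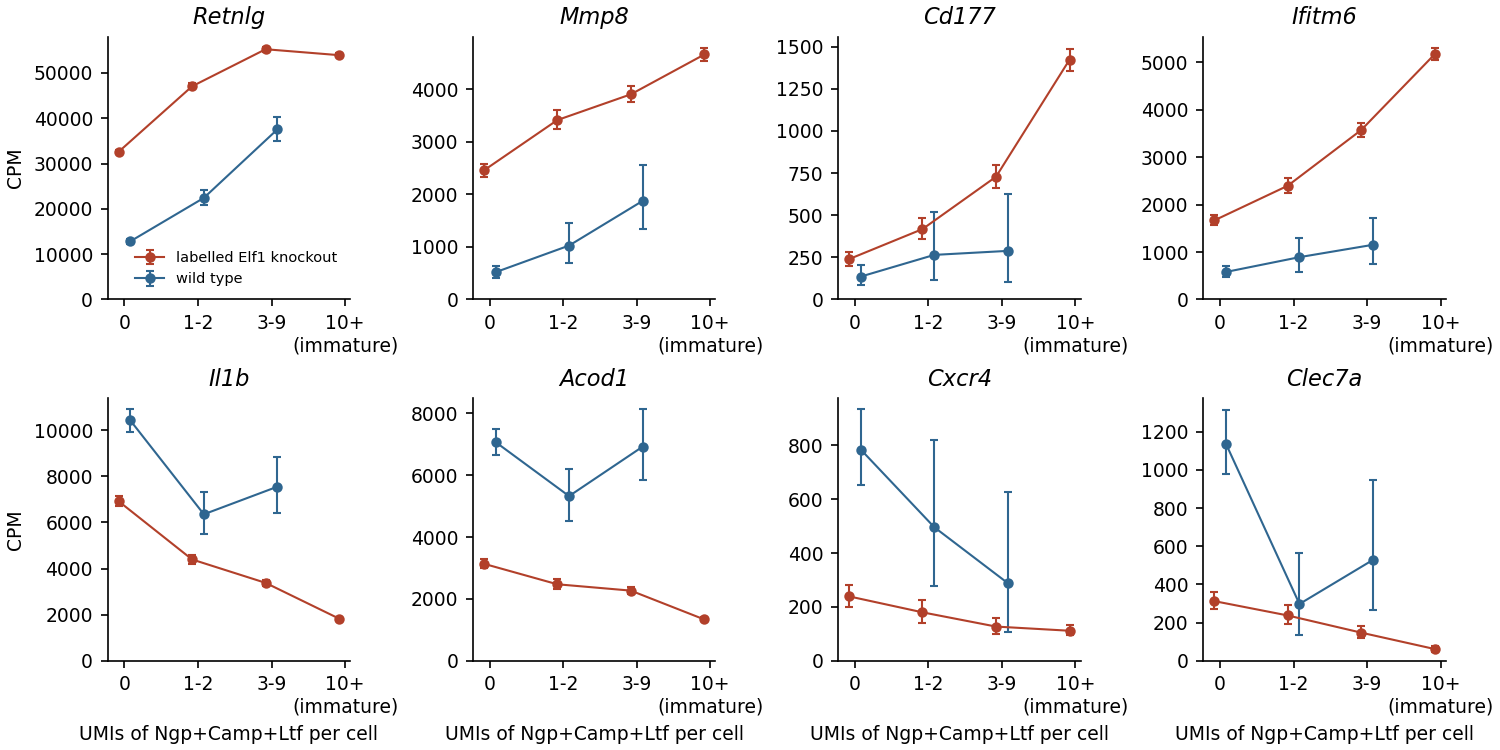
CPM (vertical axes, from 0) of 8 genes in neutrophils grouped by their UMIs of Ngp, Camp and Ltf (horizontal axes), in the library labelled Elf1 knockout (red) and in wild type (blue), with exact 95% counting intervals. The last red point is the 452 immature cells, and the 3 wild-type immature cells are not drawn. Mmp8 at 0 UMIs lies at 2454 CPM (red) and 519 CPM (blue), and Acod1 at 3139 and 7074 CPM.

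Cells of the same library differed widely from each other. With each cell thinned to 500 UMIs, the early mature genes held a median of 35 UMIs (quartiles 22 and 46) in cells labelled Elf1 knockout and 11 (6 and 21) in wild type. Retnlg, which is both in that list and among the genes of the rule, makes up most of these UMIs. Tissue activation genes held a median of 17 UMIs (11 and 27) in cells labelled Elf1 knockout and 24 (16 and 35) in wild type. The ranges overlapped almost wholly, at 0 to 128 and 6 to 92 UMIs. Within each library, cells with more early mature UMIs had fewer tissue activation UMIs, with a Spearman coefficient of -0.362 over 847 cells and -0.430 over 144, as a description of cells that share a library and a fixed total of UMIs.
Cells with the least S100 RNA differed between the libraries. The 61 cells labelled Elf1 knockout with 2% to 5% S100 held 8098 CPM of Chil3 and 4157 CPM of the lysozyme gene Lyz2, and their macrophage and monocyte markers summed to 1504 CPM. In the 456 such cells with 15% or more, Chil3 stood at 524 CPM, Lyz2 at 762 CPM and the markers at 566 CPM. The 14 wild-type cells with 2% to 5% S100, of 23345 UMIs in all, held 0 UMIs of Chil3 and 386 CPM of Lyz2. Their macrophage and monocyte markers had 9 UMIs or 386 CPM. In the 44 wild-type cells with 15% or more, Lyz2 stood at 2237 CPM and the markers at 508 CPM, so that Lyz2 ran the opposite way in wild type. The S100 share is part of the rule, and cells with 2% to 5% also held markers of other classes. In them erythroid markers summed to 33840 CPM under the Elf1 knockout label and 557 CPM in wild type. Fibroblast markers summed to 1590 and 2613 CPM, and epithelial markers to 1283 and 2056 CPM.

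**Figure D5:**
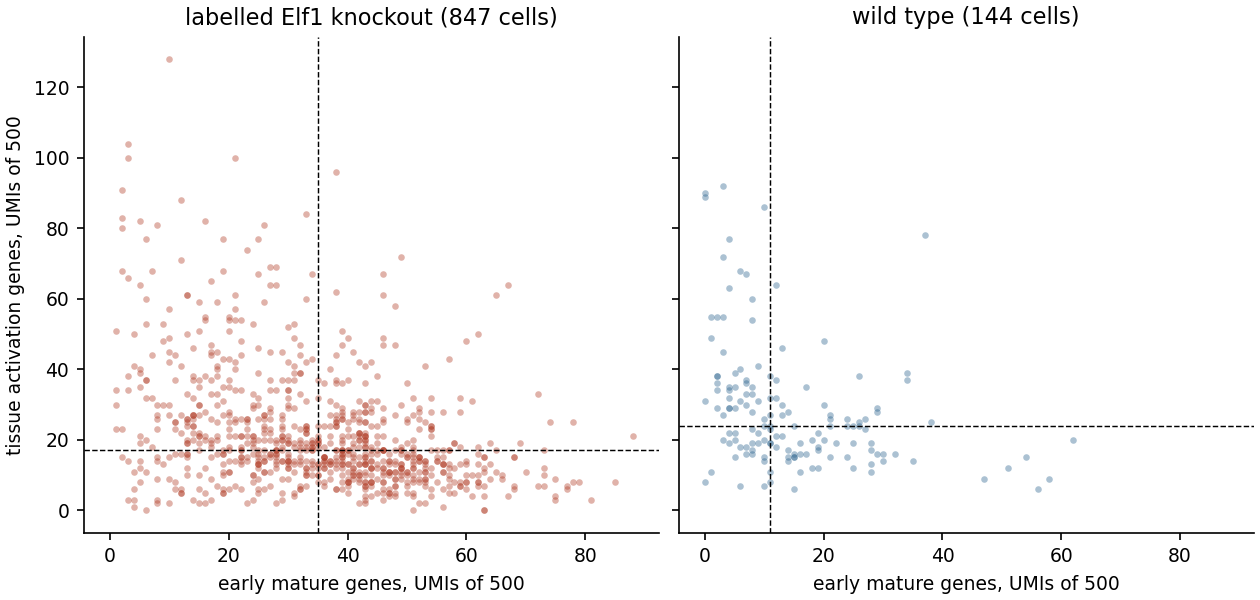
UMIs of tissue activation genes (vertical axes) and of early mature genes (horizontal axes) in each mature neutrophil after thinning to 500 UMIs, for the library labelled Elf1 knockout (left, 847 cells) and wild type (right, 144 cells). Each point is a cell and dashed lines are medians, at 35 and 17 UMIs on the left and 11 and 24 on the right.

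Immature neutrophils and macrophages or monocytes are the cells most like the mature neutrophils, and their own values for the main genes are given beside them, with no test of the difference between cell types. Immature neutrophils labelled Elf1 knockout had 4661 CPM of Mmp8, 1337 CPM of Acod1 and 449 CPM of Csf3r, and the 3 wild-type cells are too few to set beside them. Macrophages and monocytes numbered 843 in the library labelled Elf1 knockout and 564 in wild type. In them Chil3 stood at 4799 and 350 CPM, Saa3 at 19290 and 626 CPM and Mmp8 at 645 and 43.3 CPM, all higher under the Elf1 knockout label as in neutrophils. Single barcodes of this class reached 24.3% S100 and 569 UMIs of Ngp, Camp and Ltf under that label. In wild type the highest were 1.27% and 1 UMI. Whether neutrophil RNA in such barcodes adds to these values, that of Mmp8 above all, was not tested. In the same class Gbp2 stood at 33.4 and 243 CPM, Cxcr4 at 229 and 524 CPM and Clec7a at 163 and 479 CPM, all lower as in neutrophils. The sign was opposite for Slc7a11, at 435 and 125 CPM in macrophages and monocytes (log2 ratio 1.80, 1.61 to 2.00) beside 163 and 611 CPM in neutrophils (-1.91, -2.22 to -1.59). It was also opposite for Acod1, at 403 and 214 CPM (0.91, 0.76 to 1.07) beside 2634 and 6811 CPM in neutrophils. Whether neutrophil RNA in barcodes of the macrophage and monocyte class adds to these Acod1 values was not tested either. Csf3r stood at 110 and 96.9 CPM in macrophages and monocytes (0.18, -0.07 to 0.44).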

How the data were processed

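Cells were captured on Singleron GEXSCOPE chips with barcodes and UMIs and sequenced on an Illumina NovaSeq, per the labels' protocols. The authors deposited counts, which are whole-number UMIs of each gene in each barcode and were not normalized. The submitters' processing notes name cutadapt 1.17, STAR 2.6.1a, featureCounts 2.0.1 and GRCm38, without their roles, and the sources used here do not say whether counting used strand. Barcodes with at least 500 UMIs, 200 genes and at most 25% mitochondrial UMIs were kept (9734 labelled Elf1 knockout and 8124 wild type). UMIs were summed over the mature neutrophils of each library and scaled to CPM of their total. Shares carry exact Clopper-Pearson intervals, CPM exact Poisson intervals and ratios exact conditional binomial intervals, all at 95%. A count of 0 in a gene's ratio was taken as 3 UMIs. Genes listed in both files (23197, with 99.99% and 99.98% of the cells' UMIs) that averaged 50 CPM were compared.

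Other cells were assigned to a class by marker genes (at least 3 UMIs of at least 2 markers), and a gene's background bound used classes of 40 or more barcodes. Doublets were left in and removed in an alternative by scrublet in scanpy 1.11.5, which called 2.36% of the library labelled Elf1 knockout. It called 0.025% of wild type, so that the top 5% of scores were removed there. TMM factors came from edgeR 4.0.16, used for scaling only. Other tools were Python 3.11.15, numpy 2.4.6, pandas 2.3.3 and scipy 1.17.1.

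The text names the genes with the 12 largest and 12 smallest ratios that had a UMI in 10% of cells of 1 library, an interval that excluded 1 and, in the higher library, 3 times the background bound. Genes of mitochondria, ribosomes, haemoglobin, immunoglobulins, T cell receptors and sex chromosomes were not eligible, nor were gene models or the markers used for other cell classes. The genes of the rule, Elf1 and, of each list, its 2 highest and 2 lowest members and those past 2-fold were open to naming as well. Other list members given as examples were chosen after their values were seen. The cells, lists and rules were chosen with earlier results of these data known. The ratio intervals were checked only on simulated Poisson sums, which do not model how UMIs gather in single cells. In wild type 10 cells held 50.0% of the Mmp8 UMIs and 60.3% of those of Tnf, a spread that the intervals do not cover. Coordinates are GENCODE vM21 on GRCm38.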

Additional observations from a re-analysis of the deposited data

How the results depend on the processing

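No paired analysis was possible because each label had 1 library. The share ratio of mature neutrophils, 4.91, was 3.47 with fewer than 3 UMIs of Ngp, Camp and Ltf allowed and 6.11 with at least 10% S100. That limit, the removal of cells with macrophage or monocyte UMIs and the comparison of cells with no UMI of Ngp, Camp and Ltf were chosen after seeing the data. The 114 genes at 2-fold higher became 365 and 24 with averages of 20 and 200 CPM required, 966 with no minimum, 197 with TMM factors and 55 among genes at 3 times the background bound. The 181 lower became 399, 42, 7528 and 111 under the first 4 of these settings and 306 with each cell thinned to 500 UMIs. A count of 0 taken as 3 UMIs stood for 1.85 CPM under the Elf1 knockout label and 14.1 CPM in wild type. A gene with no wild-type UMI and a few under that label was thus called lower with no minimum, so the 7528 include such genes. Among genes past 2-fold the sign turned for Itga4, to 0.0287 when thinned. With smaller values counted too, it turned under at least 1 alternative for 22 of 124 genes, Cybb among them, and 13 of 27 list medians. The MHC class II median turned to 1.07 over genes at 3 times the bound, where only Ctss was left. Of 64 genes past 2-fold, 63 kept their direction and 48 stayed past 2-fold under the alternatives run. The 16 that did not were Bcl2l1, Cd177, Csf3r, Ctss, Egr1, Gbp7, Gm5483, H2-Aa, H2-T23, Itga4, Osm, Pfkp, Pmaip1, Slfn5, Txnrd1 and Vegfa. The log2 ratio of Elf1 lay between 0.0072 and 0.98. The list medians of secreted cytokines, transcription factors, antioxidants, hypoxia, Fc receptors, stefins, the genes of the rule and the further neutrophil genes were below 0 as reported and above it with TMM factors. Those of NADPH oxidase, glucocorticoid-induced and metal and iron genes, above 0 as reported, reached -0.11, -0.10 and -0.10, and that of MHC class I, below it, reached 0.03. Of the 12 higher named genes, 7 rest on fewer than 10 wild-type UMIs, and no setting replaces the missing replicate library.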
